A study of Mus musculus with 15 samples.

Results

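The genes described here are 8 members of the myeloid paired-receptor system: the triggering receptors Trem1 and Trem2, their signalling adaptor Tyrobp (DAP12), the leukocyte immunoglobulin-like receptors Pirb, Lilrb4a and Lilr4b (also named Lilrb4b), and the CD300 receptors Cd300a and Cd300lf. They were chosen by symbol with their levels in these data known, from a count table of 78317 gene identifiers, and each symbol matched 1 identifier. Because the same 15 libraries guided that choice, the values of the 8 genes are given as a description, without p-values. All 8 passed the filter on low counts that left 16654 genes in the fit.

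RNA-seq was performed on MH-S cells, an SV40-transformed mouse alveolar macrophage line, after 24 h of exposure, with 3 libraries in each of 5 groups. Untreated cells (M0) received medium only. M1 cells received LPS at 1 µg/mL together with IFN-γ at 20 ng/mL, and M2 cells received IL-4 at 20 ng/mL. CaP_rods and SiO2_rods cells received 0.1 mg/mL of rod-shaped microparticles, CaP-Alg-Prot/CMC (3DL) or SiO2-Alg-Prot/CMC (3DL). The rods were built from calcium phosphate or silica nanoparticles with alginate, protamine (Prot) and carboxymethyl chitosan (CMC). These groups ask how macrophages respond to an inhalable carrier and whether the response resembles polarization. The 3 libraries of a rod group came from 3 independently prepared particle batches, each tested in its own well with the same passage of 1 cell line, so the errors below cover wells and batches and not independent cultures.

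Library totals ran from 8459643 to 68750050 counts, and both extremes lay in different groups (M0 and M2). The mitochondrial share was 0.888% to 2.18%. Of 8 macrophage markers, 7 reached a group mean of 1 CPM (CPM is the count scaled to the TMM-adjusted library total) or more in every group, among them Cd68 at 979 ± 107 CPM in M0 (SD, n = 3). Of 9 markers of alveolar macrophages, only Itgax reached 1 CPM in M0. Siglecf (0.0738 CPM), Car4, Chil3 and Marco (0.147 CPM) were at or near 0 there, so the alveolar origin of the line is not visible in these M0 transcripts. In M1, 3 of the 9 reached a mean of 1 CPM: Itgax, Marco (2.18 CPM) and Fabp4 (1.41 CPM). The 13 markers of other cell types summed to between 0.86 and 2.72 CPM in each group.

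Paired receptors are families of closely related membrane proteins in which some members activate and others inhibit the same cell. Activating members such as TREM1 and TREM2 have short tails and signal through TYROBP, whose ITAM (immunoreceptor tyrosine-based activation motif) recruits the kinase SYK. Inhibitory members such as PIRB, LILRB4A, CD300A and CD300LF carry ITIMs (immunoreceptor tyrosine-based inhibition motifs) that recruit phosphatases such as SHP-1, encoded by Ptpn6. TREM1 is known for amplifying inflammatory responses in the lung, and TREM2 for sensing lipids and supporting survival and phagocytosis in tissue macrophages.

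Lilr4b stood apart among the 8 genes, being about 3-fold higher in M1 cells and in both rod groups than in M0, and level with M0 in M2 cells. Its neighbour Lilrb4a was higher in the same groups. Pirb was higher with LPS and IFN-γ and with IL-4 but not with rods. Trem1 was lower with both rod types, while Trem2 and Cd300a were lower in M1 cells and Cd300lf was higher there, and Tyrobp differed little in any group. Over the 8 genes, the median log2 fold change against M0 was 0.50 in M1, -0.09 in M2, 0.08 with CaP_rods and 0.15 with SiO2_rods, beside medians over all tested genes of -0.01, 0.07, 0.06 and -0.02.

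**Figure D1:**
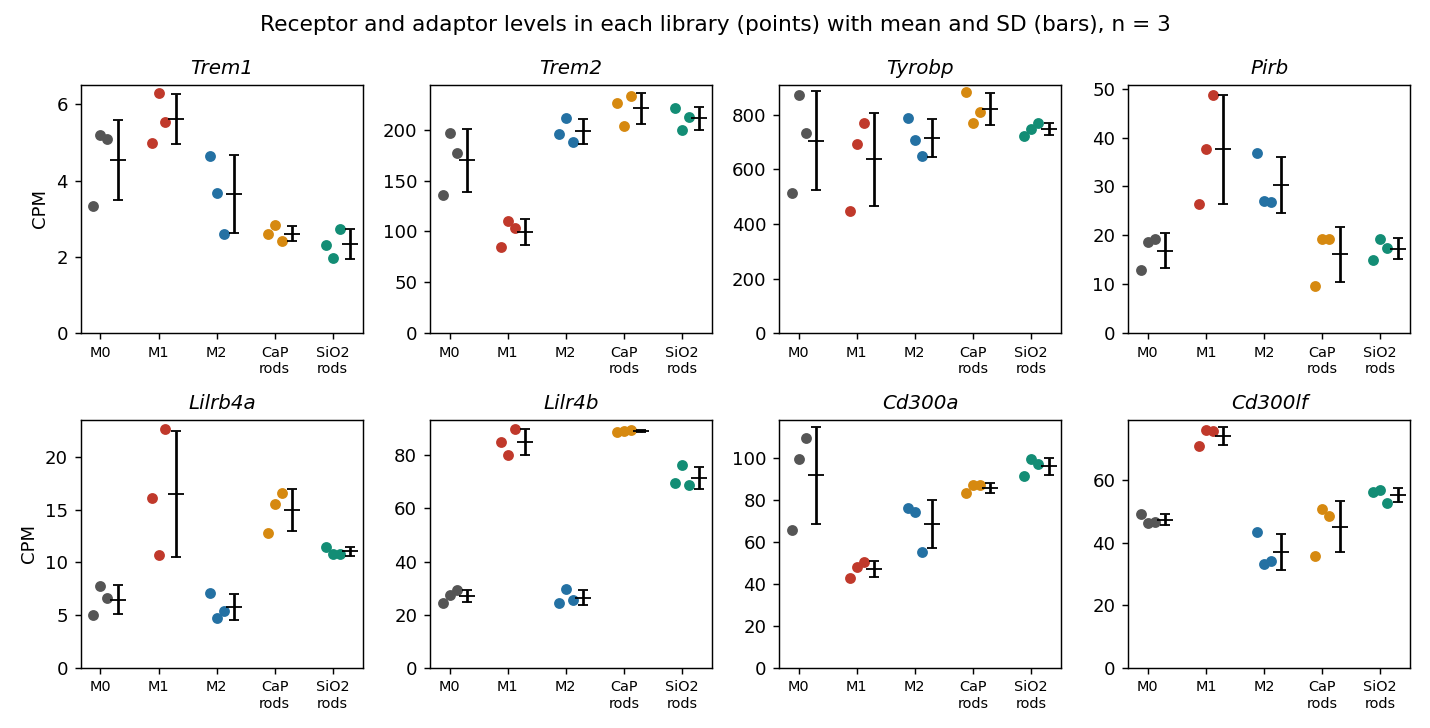
Level of each of the 8 genes in CPM (vertical axes, linear and starting at 0) in the 15 libraries, grouped by treatment; points are libraries and the bar beside them is the mean with its SD (n = 3). Lilr4b sat between 24.2 and 29.5 CPM in M0 and M2 and between 68.8 and 90.1 CPM in the other groups.

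A gene was counted as meeting the call rule where edgeR's quasi-likelihood fit gave a Benjamini-Hochberg adjusted p under 0.05 and a log2 fold change beyond 0.5 in size. In M1 against M0, 4 of the 8 genes met it as higher (Pirb, Lilrb4a, Lilr4b and Cd300lf), where 9.70% of all 16654 tested genes did, and 2 as lower (Trem2 and Cd300a), where 4.37% of all genes did. In M2 against M0 the count was 0 by edgeR and 0 by DESeq2, with 3 members at an unadjusted p under 0.05, beside 2.00% of all genes called higher and 2.13% lower. With CaP_rods against M0 only Lilr4b met the rule in the reported fit, beside 0.426% of genes higher and 0.228% lower. With SiO2_rods against M0 it was again Lilr4b alone, beside 0.222% of genes higher and 0.0420% lower. In CaP_rods against SiO2_rods the count was 0 by edgeR and 0 by DESeq2, with 1 member at an unadjusted p under 0.05, beside 0.0180% of all genes called in either direction. Since the members were chosen on these contrasts, nothing is read from these counts, nor from whether a member meets the rule here or below. The M0 libraries serve in all 4 comparisons against M0, so the changes are not independent of each other. In bulk samples such as these, fewer cells that express a gene and less of its RNA per cell cannot be told apart.

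**Figure D2:**
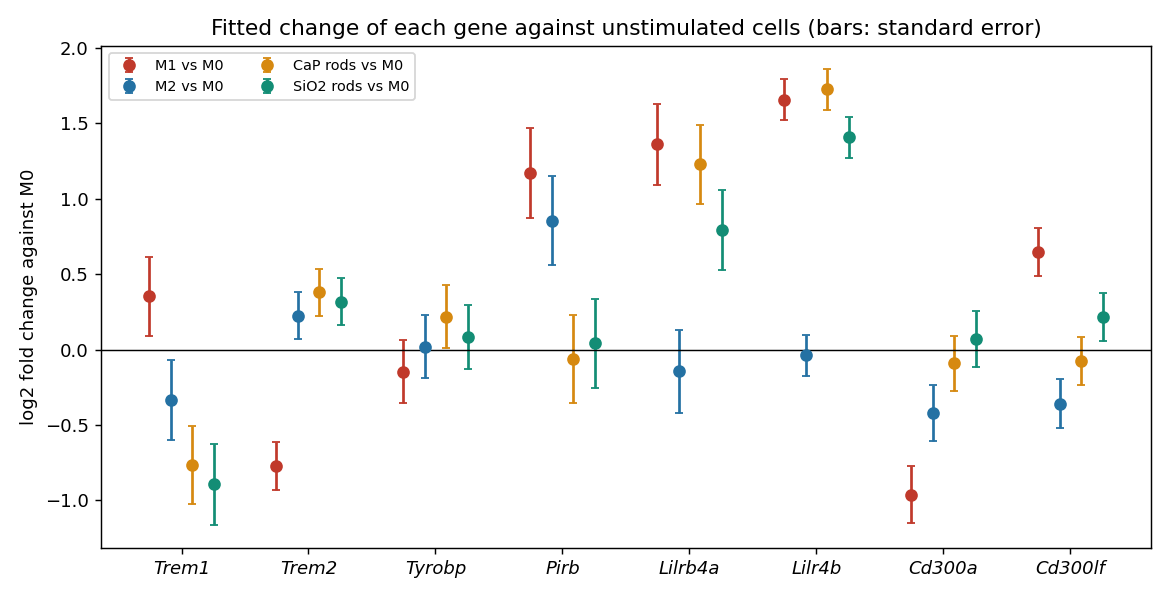
Fitted log2 fold change (vertical axis) of each gene in M1, M2, CaP_rods and SiO2_rods cells against M0, with the standard error as bars. Lilrb4a and Lilr4b lie above 0.7 in M1 and both rod groups and near 0 in M2, and Trem1 lies below 0 in both rod groups.

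Lilr4b encodes gp49A, an activating-type relative of the inhibitory gp49B that Lilrb4a encodes. The level of Lilr4b was 24.4, 27.5 and 29.2 CPM in the M0 libraries. It was 84.9, 80.3 and 90.1 CPM in M1, 88.7, 89.2 and 89.5 CPM in CaP_rods and 69.5, 76.4 and 68.8 CPM in SiO2_rods. Every library of these 3 groups lay above every M0 library. In M2 it was 24.2, 29.5 and 25.4 CPM, which overlapped M0. The log2 fold change against M0 was 1.66 ± 0.14 (SE) in M1, 1.73 ± 0.14 with CaP_rods, 1.41 ± 0.14 with SiO2_rods and -0.04 ± 0.14 in M2, or 3.16-fold, 3.31-fold, 2.65-fold and 0.9746-fold. The order of the group means was CaP_rods, M1, SiO2_rods, M0 and M2, and the neighbours CaP_rods and M1, and M0 and M2, overlapped.

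Lilrb4a, the inhibitory partner, was present at a lower level. It stood at 5.06, 7.74 and 6.60 CPM in M0 and at 16.2, 10.7 and 22.6 CPM in M1, the M1 libraries spreading more than those of any other group. It was 12.8, 15.6 and 16.5 CPM in CaP_rods, 11.5, 10.8 and 10.8 CPM in SiO2_rods and 7.10, 4.74 and 5.38 CPM in M2. The M1 and rod libraries lay above all M0 libraries, and M2 overlapped M0. The log2 fold change against M0 was 1.36 ± 0.27 in M1, 1.23 ± 0.26 with CaP_rods, 0.79 ± 0.27 with SiO2_rods and -0.14 ± 0.28 in M2. M1 overlapped both rod groups. With CaP_rods, Lilrb4a met the call rule with DESeq2 and when M1 replicate 2, M1 replicate 3 or M2 replicate 2 was left out, where the count of members was 2.

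The coding sequences of the pair were compared because similar transcripts can exchange reads when they are assigned to genes. Up to the Lilr4b stop codon, 874 of 912 aligned bases were identical (95.8%), with 36 substituted bases and 2 unpaired ones. Of the 75-base windows of the longest coding transcript, 19.7% of those of Lilrb4a occurred unchanged in Lilr4b and 15.9% of those of Lilr4b in Lilrb4a. The stretch in which the proteins part is shown from the GENCODE transcripts (GRCm38, plus strand), with the bases that differ in capitals. It joins 2 coding exons in each gene, chr10:51494819-51494845 with chr10:51495994-51496039 for Lilrb4a and chr10:51484543-51484569 with chr10:51485713-51485760 for Lilr4b.
Lilrb4a: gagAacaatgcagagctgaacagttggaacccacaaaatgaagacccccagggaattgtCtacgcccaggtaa
Lilr4b: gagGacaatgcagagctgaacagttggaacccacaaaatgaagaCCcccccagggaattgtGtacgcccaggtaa
In Lilrb4a, bases 55 to 72 of this stretch are the codons of its first ITIM. The 2 further bases of Lilr4b, whose place within the run of c is arbitrary, put the matching letters in another reading frame, in which the last 3 bases shown are the stop codon. The coding sequence had 335 codons in Lilrb4a and 303 in Lilr4b. Near the 3′ end, 2 matches to the ITIM pattern were found in Lilrb4a and 0 in Lilr4b.

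Summing the counts of both genes before the fit removes the question of how reads were split between them. The sum was 33.5 ± 3.52 CPM in M0, 101.6 ± 10.9 in M1, 32.1 ± 1.86 in M2, 104.1 ± 2.37 in CaP_rods and 82.6 ± 4.07 in SiO2_rods (SD, n = 3). Its log2 fold change against M0 was 1.60 ± 0.14 in M1, -0.06 ± 0.14 in M2, 1.64 ± 0.14 with CaP_rods and 1.31 ± 0.14 with SiO2_rods. Lilr4b held 80.8% ± 2.48 of the sum in M0, 84.1% ± 4.18 in M1, 82.0% ± 4.43 in M2, 85.7% ± 1.58 in CaP_rods and 86.6% ± 0.919 in SiO2_rods. The share of Lilr4b was above every M0 library in each rod library and overlapped M0 in M1 and M2, and how far read assignment moves it was not tested.

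**Figure D3:**
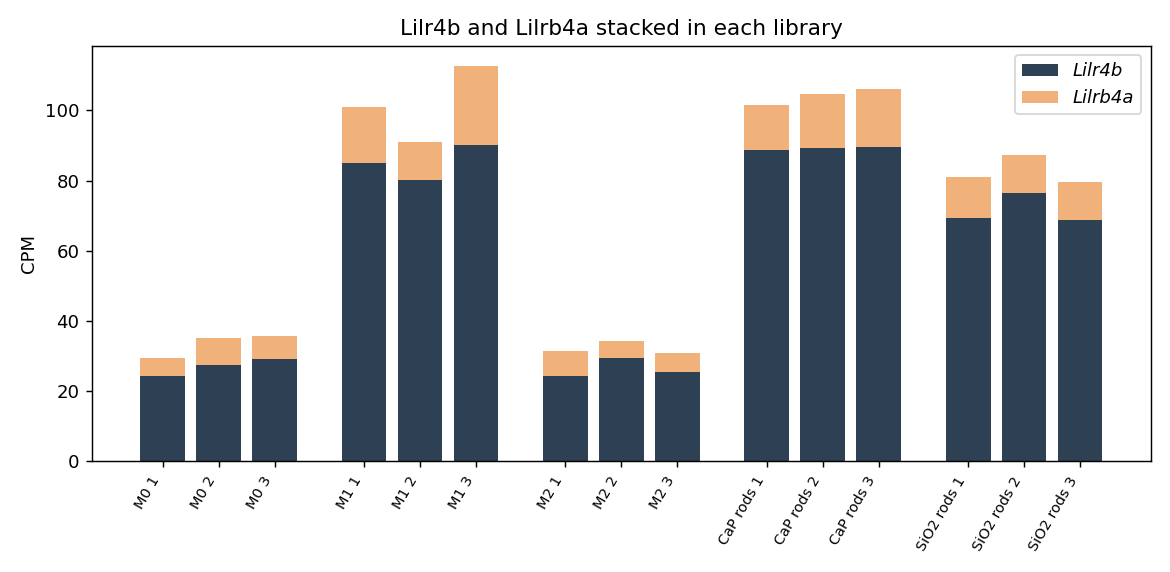
Lilr4b (dark) and Lilrb4a (light) in CPM, stacked from 0 for each of the 15 libraries. The summed level lay between 29.4 and 35.8 CPM in the M0 libraries, with M2 in the same range, and between 79.6 and 112.7 CPM in the M1 and rod libraries.

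Pirb, an inhibitory receptor that binds MHC class I, was 12.8, 18.5 and 19.2 CPM in M0. It was 26.5, 37.7 and 48.8 CPM in M1 and 36.8, 26.98 and 26.9 CPM in M2, above every M0 library in both groups. In the rod groups it was 9.58, 19.3 and 19.3 CPM with CaP_rods and 15.02, 19.3 and 17.4 CPM with SiO2_rods, both overlapping M0. The log2 fold change against M0 was 1.17 ± 0.30 in M1, 0.86 ± 0.29 in M2, -0.06 ± 0.29 with CaP_rods and 0.04 ± 0.29 with SiO2_rods. Pirb did not meet the call rule in M1 when M0 replicate 1 or M1 replicate 3 was left out, where the members meeting it numbered 5 and 4. The Pirb transcript shared 16.7% of its 75-base windows with Pira2 and 7.87% with Lilra6, the only relatives compared with it. Single 75-base reads from these windows cannot be told apart from theirs, and whether the read pairs can was not tested.

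Trem1 was the least abundant of the 8 genes, with 26 to 182 counts in a library. It was 3.32, 5.20 and 5.10 CPM in M0, 4.99, 6.29 and 5.54 CPM in M1 and 4.64, 3.69 and 2.60 CPM in M2, and M1 and M2 both overlapped M0. It was 2.58, 2.83 and 2.42 CPM with CaP_rods and 2.30, 1.97 and 2.73 CPM with SiO2_rods, and each rod library lay below each M0 library. The log2 fold change against M0 was -0.77 ± 0.26 with CaP_rods, -0.89 ± 0.27 with SiO2_rods, 0.35 ± 0.26 in M1 and -0.33 ± 0.26 in M2. With CaP_rods it was -1.11 after counts were thinned to the smallest library. None of these changes met the call rule.

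Trem2 was 135.9, 197.2 and 176.9 CPM in M0 and 84.6, 110.1 and 103.6 CPM in M1, every M1 library lying below every M0 library. It was 195.7, 212.2 and 188.3 CPM in M2, overlapping M0. With rods it was 226.6, 203.5 and 233.2 CPM (CaP_rods) and 221.9, 199.5 and 213.2 CPM (SiO2_rods), each above the highest M0 library. The log2 fold change against M0 was -0.77 ± 0.16 in M1, 0.23 ± 0.16 in M2, 0.38 ± 0.16 with CaP_rods and 0.32 ± 0.16 with SiO2_rods, and the last 3 did not meet the call rule. The lowest M0 value came from replicate 1, which was the lowest M0 library for each of the 8 genes except Cd300lf.

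Tyrobp, the adaptor that TREM1 and TREM2 share, was 511.8, 872.7 and 733.2 CPM in M0. It was 446.6, 694.2 and 771.2 CPM in M1, 790.1, 706.6 and 649.5 CPM in M2, 884.6, 768.6 and 809.7 CPM with CaP_rods and 723.4, 749.9 and 768.9 CPM with SiO2_rods. Every group overlapped M0. The log2 fold changes were -0.15 ± 0.21 in M1, 0.02 ± 0.21 in M2, 0.22 ± 0.21 with CaP_rods and 0.08 ± 0.21 with SiO2_rods, and the 95% interval in M1 ran from -0.60 to 0.30.

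Apart from the share of Lilr4b in the summed pair, which was taken on CPM without scaling by length, levels of different genes were compared per kilobase of the longest coding transcript (CPM per kb). On that scale the means in M0 were 1182 for Tyrobp, 156.2 for Trem2, 25.1 for Cd300lf, 19.7 for Cd300a, 14.7 for Lilr4b, 4.68 for Lilrb4a, 4.41 for Pirb and 1.52 for Trem1. Tyrobp thus exceeded Trem2 by 7.49 ± 0.603 times in M0, 11.6 ± 1.97 in M1, 6.57 ± 0.690 in M2, 6.78 ± 0.405 with CaP_rods and 6.46 ± 0.467 with SiO2_rods. The ratio of Trem2 to Trem1 was 104.1 ± 8.58 in M0, 48.8 ± 2.44 in M1, 157.8 ± 41.5 in M2, 234.9 ± 34.1 with CaP_rods and 252.9 ± 34.0 with SiO2_rods. Each M1 library had a lower Trem2 to Trem1 ratio than each M0 library, and each M2 or rod library a higher one.

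**Figure D4:**
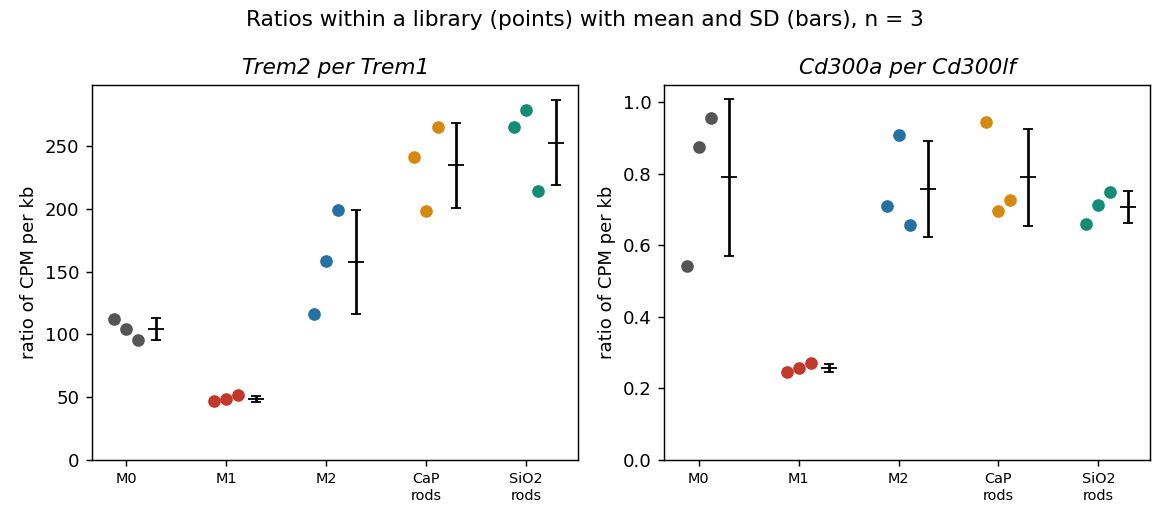
Ratio of Trem2 to Trem1 (left) and of Cd300a to Cd300lf (right), from CPM per kb on linear axes that start at 0; points are libraries and bars the mean with SD (n = 3). The M1 libraries sit lowest in both panels, and the rod libraries sit above M0 only in the left one.

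The CD300 pair lay on opposite sides of M0 in M1 cells. Cd300a, an inhibitory receptor for phosphatidylserine and phosphatidylethanolamine on dying cells, was 65.8, 99.6 and 109.7 CPM in M0 and 42.8, 47.9 and 50.2 CPM in M1, below every M0 library. Cd300a was 76.1, 74.2 and 55.2 CPM in M2, 83.1, 87.1 and 87.4 CPM with CaP_rods and 91.5, 99.6 and 97.0 CPM with SiO2_rods, all overlapping M0. Its log2 fold change against M0 was -0.96 ± 0.19 in M1, -0.42 ± 0.19 in M2, -0.09 ± 0.18 with CaP_rods and 0.07 ± 0.19 with SiO2_rods.

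Cd300lf, whose product also binds phosphatidylserine and serves as the mouse norovirus receptor, was 49.4, 46.2 and 46.6 CPM in M0 and 70.8, 76.0 and 75.7 CPM in M1, above every M0 library. It was 43.5, 33.2 and 34.2 CPM in M2, below every M0 library. It was 35.7, 50.8 and 48.7 CPM with CaP_rods, overlapping M0, and 56.2, 56.7 and 52.6 CPM with SiO2_rods, above M0. The log2 fold change was 0.65 ± 0.16 in M1, -0.36 ± 0.16 in M2, -0.08 ± 0.16 with CaP_rods and 0.22 ± 0.16 with SiO2_rods. Cd300lf did not meet the call rule in M1 when M0 replicate 2, M0 replicate 3, M1 replicate 2 or M1 replicate 3 was left out, nor when no filter on low counts was applied. The ratio of Cd300a to Cd300lf per kilobase was 0.791 ± 0.220 in M0 and 0.257 ± 0.0121 in M1, and between 0.707 and 0.790 as means of the other groups.

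Between the rod materials, at the same mass concentration and time, no member met the call rule. The materials differ in density, so this dose is matched by mass and not by the number of rods per cell. The largest log2 differences of CaP_rods over SiO2_rods were 0.43 ± 0.25 for Lilrb4a (95% interval -0.11 to 0.98) and 0.32 ± 0.13 for Lilr4b (0.04 to 0.60), and both genes were higher in every CaP_rods library. The log2 difference was -0.29 ± 0.16 for Cd300lf and -0.16 ± 0.18 for Cd300a, and both were lower in every CaP_rods library. Trem1, Trem2, Tyrobp and Pirb overlapped between the materials, and their 95% intervals reached from -0.73 (Pirb) to 0.70 (Trem1).

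The wider pathway was described with 8 lists of 107 other genes, of which 98 matched the table and 89 were tested. The lists were chosen with earlier results of these data known, so their counts and adjusted p-values, here and below, serve as a description. Over all lists, edgeR called 24 genes in M1 (17 higher, 7 lower), 20 in M2 (9 higher, 11 lower), 9 with CaP_rods (5 higher, 4 lower) and 1 with SiO2_rods. Among all 16654 tested genes, 9.70% were called higher and 4.37% lower in M1, and 2.00% and 2.13% in M2. With CaP_rods these shares were 0.426% and 0.228%, and with SiO2_rods 0.222% and 0.0420%. They are the background for the counts of each list below. With SiO2_rods, DESeq2 called 6 and edgeR with no filter on low counts called 7. In CaP_rods against SiO2_rods, edgeR called 0, beside 0.0180% of all genes, with 10 at an unadjusted p under 0.05, and DESeq2 called 2. Median log2 fold changes over the 89 genes were 0.36 in M1, 0.11 in M2, 0.08 with CaP_rods and 0.03 with SiO2_rods. Over all tested genes these medians were -0.01, 0.07, 0.06 and -0.02. With CaP_rods the count lay between 2 and 13 when single libraries were left out, and it was 2 without M0 replicate 1, M0 replicate 3, CaP_rods replicate 2 or CaP_rods replicate 3, 4 without M1 replicate 2, M2 replicate 1, SiO2_rods replicate 1 or SiO2_rods replicate 3, and 5 without M1 replicate 3. In M2 it was 12 without M0 replicate 1, 13 without M0 replicate 3 or M2 replicate 1 and 11 without M2 replicate 3.

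**Figure D5:**
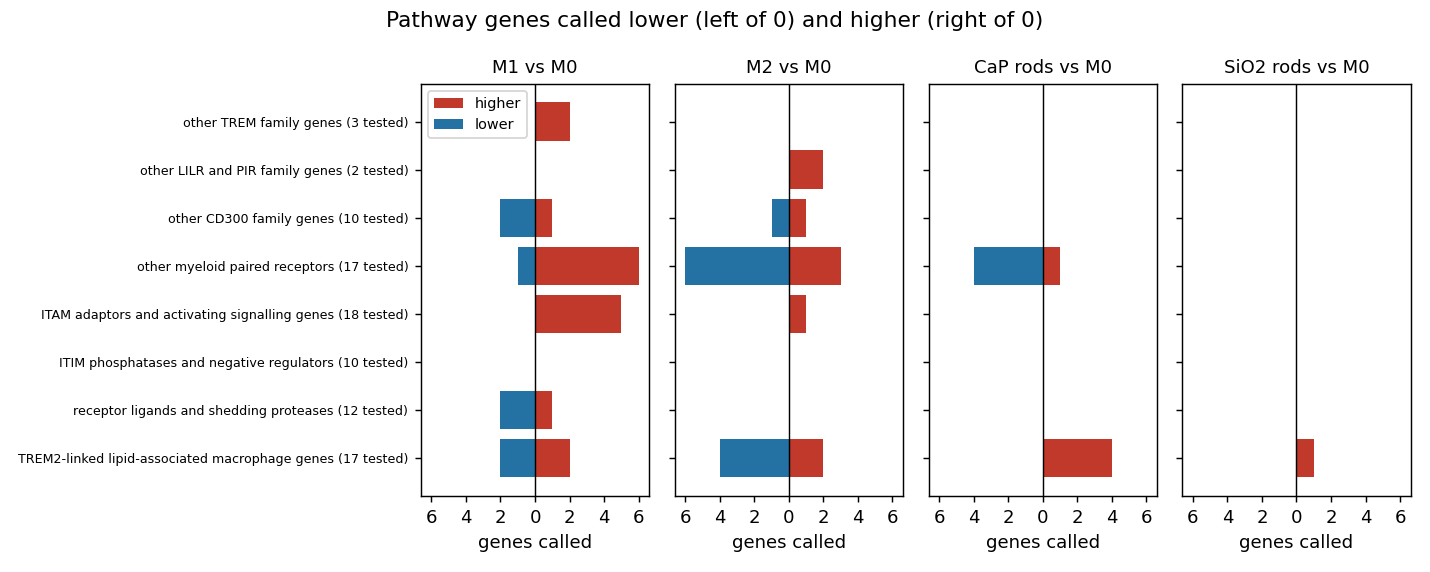
Number of genes called lower (left of 0) and higher (right of 0) in each of the 8 lists, with the number tested in brackets, for the 4 comparisons against M0. Calls spread over most lists in M1 and lie only among TREM2-linked genes and other paired receptors with CaP_rods.

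Among relatives of the members, Trem3, an activating TREM of mice, rose in M1 with a log2 fold change of 1.77 ± 0.26 (adjusted p = 0.000468), and Treml4 by 1.58 ± 0.32 (adjusted p = 0.00454), 2 of 3 tested TREM relatives. Trem3 and Treml4 lie between Trem1 and Trem2 in the gene order, with Treml2 and B430306N03Rik. Of the LILR and PIR relatives, Lilra6 (1.66 ± 0.31, adjusted p = 0.00816) and Pira2 (1.37 ± 0.27, adjusted p = 0.0103) rose in M2, both being activating PIR receptors. Both share windows with Pirb, and other relatives were not compared with it. The Lilra6 and Pira2 calls in M2 were both lost without M0 replicate 1, and Lilra6 also without M2 replicate 3 and Pira2 without M2 replicate 1, with adjusted p up to 0.113 and 0.107 over the alternatives.

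Of 10 tested CD300 relatives, 3 were called in M1 and 2 in M2. Cd300ld3, Cd300ld4 and Cd300ld5 had the same mean in M2 (1.30 CPM), and read sharing among them was not tested. Cd300e, an activating receptor of monocytes, rose by 3.48 ± 0.30 in M1 (adjusted p = 1.4e-06) and fell by 2.18 in M2 (SE 0.45, adjusted p = 0.0118), where the call was lost without M0 replicate 1 or M2 replicate 3. Its mean was 0.968 CPM in M0, 10.9 CPM in M1 and 0.311 CPM in M2, so the fall in M2 was between low levels. Cd300lg fell by 2.47 in M1 (SE 0.27, adjusted p = 2.75e-05) and rose by 1.55 ± 0.20 in M2 (adjusted p = 0.000427). With CaP_rods, 0 of the 10 were called by edgeR and 0 by DESeq2, with 1 at an unadjusted p under 0.05. With SiO2_rods, 0 were called by either tool and 0 had an unadjusted p under 0.05.

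Among 17 other paired receptors tested, edgeR called 7 in M1, 9 in M2, 5 with CaP_rods and 0 with SiO2_rods, where 5 had an unadjusted p under 0.05 and DESeq2 called 2. The calls with CaP_rods include the relatives Pilrb1 and Pilrb2, and Sirpb1b and Sirpb1c. Whether these relatives share reads was not tested, so they may not count as separate genes. Siglece, an inhibitory sialic-acid receptor, rose by 3.35 ± 0.50 in M1 (adjusted p = 0.000493). Tarm1, an activating receptor that pairs with the Fc receptor gamma chain, rose by 2.67 ± 0.20 in M1 (adjusted p = 6.52e-07) and by 2.45 ± 0.20 in M2 (adjusted p = 4.49e-06). Cd200r4 rose by 3.31 ± 0.29 in M2 (adjusted p = 1.02e-05) and by 1.36 ± 0.28 with CaP_rods (adjusted p = 0.043), and was 1.43 ± 0.28 with SiO2_rods (adjusted p = 0.055). Pilra, an inhibitory receptor, rose by 0.83 ± 0.18 in M1 (adjusted p = 0.0081) and fell by 1.32 in M2 (SE 0.19, adjusted p = 0.00103), and was -0.64 ± 0.18 with CaP_rods (adjusted p = 0.133). Its activating partners Pilrb1 and Pilrb2 fell in M2 by 1.31 (SE 0.22, adjusted p = 0.00358) and 1.31 (SE 0.25, adjusted p = 0.00816), calls that held in 15 and 14 of the 15 fits that left out a library. With CaP_rods they fell by 1.06 (SE 0.21, adjusted p = 0.0427) and 1.16 (SE 0.24, adjusted p = 0.0427), and with SiO2_rods they were -0.80 ± 0.21 (adjusted p = 0.235) and -0.63 ± 0.23 (adjusted p = 0.472). Milr1 rose by 1.03 ± 0.26 in M1 (adjusted p = 0.017, lost without M0 replicate 1, M0 replicate 2 or M1 replicate 1) and Cd200r1, an inhibitory receptor, by 1.34 ± 0.26 in M2 (adjusted p = 0.0092, lost without M0 replicate 1). The other calls with CaP_rods, Sirpb1b and Sirpb1c, were lower by -1.82 and -1.99 on the log2 scale from means of 1.68 and 2.50 CPM in M0, and were named after their values were seen. The Cd200r4 call with CaP_rods remained in 4 of 15 fits that left out a library, that of Pilrb1 in 6, that of Pilrb2 in 5, that of Sirpb1b in 10 and that of Sirpb1c in 6. The calls of Pilrb2, Sirpb1b and Sirpb1c were also lost with thinned counts and with only the 9 libraries of M0 and rods.

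Of 18 signalling genes on the ITAM side, 5 rose in M1 and none fell. Syk, the kinase that binds the TYROBP motif, rose by 1.09 ± 0.21 (adjusted p = 0.00375), Blnk by 1.31 ± 0.17 (adjusted p = 0.000121), Pik3ap1 by 1.28 ± 0.22 (adjusted p = 0.00159) and Lcp2 by 1.04 ± 0.22 (adjusted p = 0.00622). These 4 calls held in each fit that left out 1 library. In M2, Prkcd rose by 1.12 ± 0.27 (adjusted p = 0.0314), a call that held in 10 of the 15 fits that left out a library. On the inhibitory side, edgeR called 0 of 10 phosphatase and regulator genes in each of the 5 comparisons, with 2, 2, 3, 0 and 0 at an unadjusted p under 0.05 in M1, M2, CaP_rods and SiO2_rods against M0 and in CaP_rods against SiO2_rods, and DESeq2 called 1, 1, 0, 0 and 0. Ptpn6 was 354.7 ± 82.5 CPM in M0, 562.9 ± 93.0 in M1, 405.0 ± 87.1 in M2, 497.9 ± 129.5 with CaP_rods and 427.0 ± 38.8 with SiO2_rods (SD, n = 3).

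Genes linked to TREM2 in lipid-handling macrophages included 4 of 17 called with CaP_rods, each higher. Csf1, a macrophage growth factor, rose by 3.56 ± 0.44 (adjusted p = 0.00112) from a mean of 0.408 CPM in M0 to 5.15 CPM. Cst7 rose by 1.76 ± 0.23 (adjusted p = 0.00205), Gpnmb by 1.71 ± 0.29 (adjusted p = 0.0171) and Lgals3 by 1.24 ± 0.25 (adjusted p = 0.045). The calls of Csf1 and Cst7 held in all 15 fits that left out a library, that of Gpnmb in 11 and that of Lgals3 in 3. Gpnmb, a lysosome-associated glycoprotein, was the only listed gene that edgeR called with SiO2_rods, at 1.82 ± 0.29 (adjusted p = 0.0209), and the call was lost without any 1 of the 3 M0 or the 3 SiO2_rods libraries. In SiO2_rods against M0, Lgals3 was 1.12 ± 0.25 (adjusted p = 0.133), Csf1 1.19 ± 0.53 (adjusted p = 0.582) and Cst7 0.52 ± 0.24 (adjusted p = 0.61). Between the rods, edgeR called 0 genes of this list and DESeq2 called 2. DESeq2 called 4 genes of this list with SiO2_rods and 7 with CaP_rods. The median log2 fold change of this list was 0.64 with CaP_rods and 0.40 with SiO2_rods.

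In M1, the same list had Fabp5 (1.36 ± 0.15, adjusted p = 2.75e-05) and Ctsd (1.37 ± 0.35, adjusted p = 0.0188) higher, and Clec7a (-1.86 ± 0.22, adjusted p = 5.77e-05) and Gpnmb (-1.01 ± 0.29, adjusted p = 0.0335) lower. The call of Ctsd was lost without M0 replicate 1, M1 replicate 2 or M1 replicate 3, and that of Gpnmb without M0 replicate 2, M0 replicate 3 or any 1 of the M1 libraries. In M2, Cst7 rose by 3.08 ± 0.24 (adjusted p = 3.72e-06) and Spp1, osteopontin, fell by 1.81 (SE 0.23, adjusted p = 0.00047). Ctsl and Cd9 fell in M2 by 0.76 (adjusted p = 0.0366) and 0.69 (adjusted p = 0.0426), calls that held in 6 and 4 of the 15 fits that left out a library. Among ligands and shedding proteases, Fn1 rose by 2.71 ± 0.35 in M1 (adjusted p = 0.000131), and Itgav fell by 0.94 (SE 0.25, adjusted p = 0.022), a call lost without M0 replicate 1, M0 replicate 2, M1 replicate 2 or M1 replicate 3. With either rod type edgeR and DESeq2 called 0 of the 12 tested genes of this list, and 3 (CaP_rods) and 1 (SiO2_rods) had an unadjusted p under 0.05.

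The genes whose 4 log2 fold changes against M0 lay nearest to a member were sought among 10720 genes whose mean reached 5 CPM in 1 group or more, by the root mean square difference. Nearest to Lilr4b were Gm40645 (0.27), Ctsd (0.29) and Bcl2l1 (0.29). Nearest to Lilrb4a were Rhoc (0.10), Hmga1 (0.15) and Snx7 (0.18). Nearest to Pirb were C230053D17Rik (0.11), Dqx1 (0.11) and Pcgf2 (0.13). Ctsd, which encodes the lysosomal protease cathepsin D, had fitted changes of 1.37 in M1, -0.14 in M2, 1.28 ± 0.35 with CaP_rods and 1.21 ± 0.35 with SiO2_rods. The edgeR fit called neither of its changes with rods (adjusted p = 0.12 and 0.283).

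Promoter sequence from RefSeq (GRCm38.p6) was matched for 6 of the 8 genes, with Tyrobp and Lilrb4a unmatched. The 250 bases before the start are shown for Lilr4b, which had the largest change with rods, and for Trem1 and Trem2, neighbours of 1 gene cluster which lay on opposite sides of M0 with rods. Both strands were searched for 4 motifs: AP-1 (TGANTCA), the interferon-gamma-activated site GAS (TTCNNNGAA), the PU.1 core (GAGGAA) and the E-box (CACGTG). Matches are in capitals. The windows are chr10:51480362-51480611 (plus strand) for Lilr4b, chr17:48232489-48232738 (plus strand) for Trem1 and chr17:48346151-48346400 (plus strand) for Trem2.
Lilr4b: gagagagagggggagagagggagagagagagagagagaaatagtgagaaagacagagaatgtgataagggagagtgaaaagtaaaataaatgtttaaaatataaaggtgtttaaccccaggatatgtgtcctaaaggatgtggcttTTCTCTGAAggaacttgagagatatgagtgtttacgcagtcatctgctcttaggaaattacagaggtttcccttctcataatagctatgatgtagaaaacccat
Trem1: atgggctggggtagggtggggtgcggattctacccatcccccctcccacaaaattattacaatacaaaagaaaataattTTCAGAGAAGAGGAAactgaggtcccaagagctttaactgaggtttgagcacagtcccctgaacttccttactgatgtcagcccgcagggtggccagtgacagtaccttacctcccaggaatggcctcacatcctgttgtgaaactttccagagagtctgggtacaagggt
Trem2: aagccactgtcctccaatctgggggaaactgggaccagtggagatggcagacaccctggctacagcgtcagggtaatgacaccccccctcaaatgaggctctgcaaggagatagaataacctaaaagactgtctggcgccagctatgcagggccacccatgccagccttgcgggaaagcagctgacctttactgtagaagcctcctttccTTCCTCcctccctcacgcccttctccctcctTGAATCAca
Lilr4b held 1 GAS match, and Trem1 held 1 GAS match directly followed by 1 PU.1 core. Trem2 held 1 PU.1 core, read on the other strand, and 1 AP-1 match. Pirb held 3 PU.1 cores, and Cd300a and Cd300lf 1 each. Of 32851 promoters of the same length, 7.02% held the GAS letters, 23.3% the PU.1 core, 6.75% the AP-1 letters and 6.02% the E-box, which none of the 6 promoters held. These matches describe letters only and say nothing about binding.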

How the data were processed

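Poly(A) RNA of 15 MH-S libraries was made into Smart-seq2 libraries without molecular identifiers and sequenced as 75-base read pairs. The authors aligned and quantified the reads with nf-core/rnaseq 3.14.0 (STAR and Salmon, Ensembl release 114), and the submitters' processing notes name GRCm39. They deposited raw counts per gene, which are whole numbers and may be rounded estimates. Printed sequences come from GRCm38, and no other coordinates are given. Symbols were given to 51487 of 78317 identifiers.

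Groups came from the sample labels. Counts were filtered by expression, scaled by TMM and fitted in R 4.3.3 with edgeR 4.0.16 (quasi-likelihood, 1 model over all 15 libraries), and p-values were adjusted by Benjamini-Hochberg over 16654 genes. DESeq2 1.42.0 was an alternative, as were other scaling, filters, thinned counts, a replicate block, fewer libraries and leaving out each library. The procedure was tested on simulated data. Replicates differed by more than counting error (chi-square per gene 6.92 to 169.1 over 15 pairs).

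Members and lists were chosen with earlier results of these data known. Of each list and comparison, up to 4 called genes with the largest change and a mean of at least 5 CPM in 1 group are named. The 3 genes nearest in pattern are named for each member that changed by 1 or more on the log2 scale. Ptpn6 and single markers were named after their values were seen. Pilrb1, Pilrb2, Clec5a and Cd33 in M2 were named beyond the limit of 4 genes per list, with their values known. The list symbols Treml6, Pira1, Pira4, Pira5, Pira6, Pira7, Pira11, Pira12 and Pira13 did not match the table. Standard errors were the log2 fold change divided by the square root of its F statistic, and the intervals of the members came from them, and counts carry no correction for amplification.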

Additional observations from a re-analysis of the deposited data

How the results depend on the processing

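Over 954 recomputed changes of the 8 genes, 0 reversed among those that met the call rule and 7 moved by more than 1 SD between replicates. Lilrb4a with CaP_rods was 1.64, and with SiO2_rods 1.30, when its counts were summed with those of Lilr4b, and Lilr4b was 1.63 with CaP_rods without M0 replicate 1. The members meeting the call rule with CaP_rods numbered 2 with DESeq2, with DESeq2 size factors, with no filter on low counts and with only the 9 libraries of M0 and rods, Lilrb4a being the second, and with SiO2_rods 0 when only the 6 libraries compared were fitted, where the cause was not tested. When single libraries were left out, members meeting it numbered 4 to 6 in M1, 0 to 0 in M2, 1 to 2 with CaP_rods, 1 to 1 with SiO2_rods and 0 to 0 between the rods.

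Pathway genes called ranged, with single libraries left out, from 16 to 28 in M1, 11 to 24 in M2, 2 to 13 with CaP_rods, 0 to 2 with SiO2_rods and 0 to 1 between the rods. With only the 6 libraries compared they numbered 3 in M2, 0 with CaP_rods and 0 with SiO2_rods, and with the 9 libraries of M0 and rods 0 with SiO2_rods, fits that hold fewer samples. With CaP_rods they numbered 18 with no filter on low counts, 4 with thinned counts and 4 with edgeR's legacy quasi-likelihood fit, an alternative chosen after the data were seen. With SiO2_rods they numbered 6 with DESeq2, 7 with no filter and 3 with at least 10 counts in every library. Between the rods they numbered 2 with DESeq2 and 2 with no filter. The causes were not tested.

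With the replicate block the pathway genes called numbered 22 in M1, 18 in M2, 5 with CaP_rods (against 9), 1 with SiO2_rods and 0 between the rods. With CaP_rods the calls of Pilrb1, Pilrb2, Sirpb1c and Lgals3 were lost, and in M2 those of Cd9, Clec5a and Cd33. Over all groups the shared replicate numbers gave no steady pairing: 14 of 30 same-number pairs of libraries had a correlation of deviations over 0.1, and 4 of 15 libraries matched best with their own number. Among the groups compared, the 3 M0 and M1 pairs were all over 0.1 (0.292, 0.275 and 0.206), and there the block lost no call of a gene named in M1. Trem1 had 26 to 182 counts in a library and Lilrb4a 36 to 664, the lowest among the members.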
